A study of Mus musculus with 12 samples.

Results

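The comparison described here is between eGFP+ cells sorted from the mouse spinal cord 1 week after lateral hemisection (HS 1 week) and the same cells from non-injured mice (NI). It was taken as all libraries that the labels place in these groups, 3 of HS 1 week and 3 of NI, which are 6 of the 12 libraries of the series. All 16389 genes of the expression table were followed, and 16388 of them could be tested. Mice of both groups were adult males of an Aldh1l1-EGFP line on a Swiss Webster background, and the promoter of the astrocyte gene Aldh1l1 drives eGFP in them. In HS 1 week the cord was cut on 1 side at a thoracic level and the segment centered on the lesion was taken, and in NI the equivalent thoracic segment was taken, with no operation described. Each library was made from polyadenylated RNA of sorted living eGFP+ cells, and animals were pooled into libraries. The other groups of the series, used only to fit the spread between libraries and for a comparison near the end, were HS 2 weeks (2 libraries), full transection (FT) 1 week (1 library) and FT 2 weeks (3 libraries). All levels are normalized counts, which are reads per gene divided by 1 factor per library and are not corrected for gene length, so genes are not compared with each other in level. Log2 fold changes are HS 1 week minus NI on the log2(normalized count + 1) scale, which understates the change of low genes.

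Astrocytes react to injury of the central nervous system by becoming reactive, a state marked by the intermediate filament gene Gfap and the protease inhibitor gene Serpina3n. Injured tissue also releases interferons, which act through STAT and IRF transcription factors to switch on antiviral genes and antigen presentation. Complement component C4, which is cleaved early in the classical pathway and tags debris and synapses, is made by glia as well as by the liver.

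The libraries were of similar depth but differed in cell content within each group. The HS 1 week libraries held 8818561 to 15562378 reads (median 13066435) and the NI libraries 12257277 to 13254939 (median 12686867). All 20 genes of an astrocyte list were detected in each of the 6 libraries, but Aqp4, the astrocyte water channel, had 802, 817 and 17.7 normalized counts in HS 1 week libraries 1 to 3 and 307, 440 and 46.0 in NI libraries 1 to 3. HS library 3 and NI library 3 were therefore low in astrocyte transcripts. Summed over 17 microglia and macrophage genes, the libraries had 5048, 1305 and 18300 normalized counts in HS 1 week and 1092, 7728 and 10160 in NI. HS library 2 and NI library 1 were thus the poorest in these transcripts. Transcripts of myelinating oligodendrocytes were present at high levels in all 6 libraries, as 12 genes of these cells summed to 113400, 101400 and 66500 normalized counts in HS 1 week and 91540, 54600 and 57070 in NI. In these bulk samples, fewer cells of a type and less RNA per cell cannot be told apart. The plot of summed cell type markers shows this spread, and for this reason the value in each library is given throughout.

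**Figure D1:**
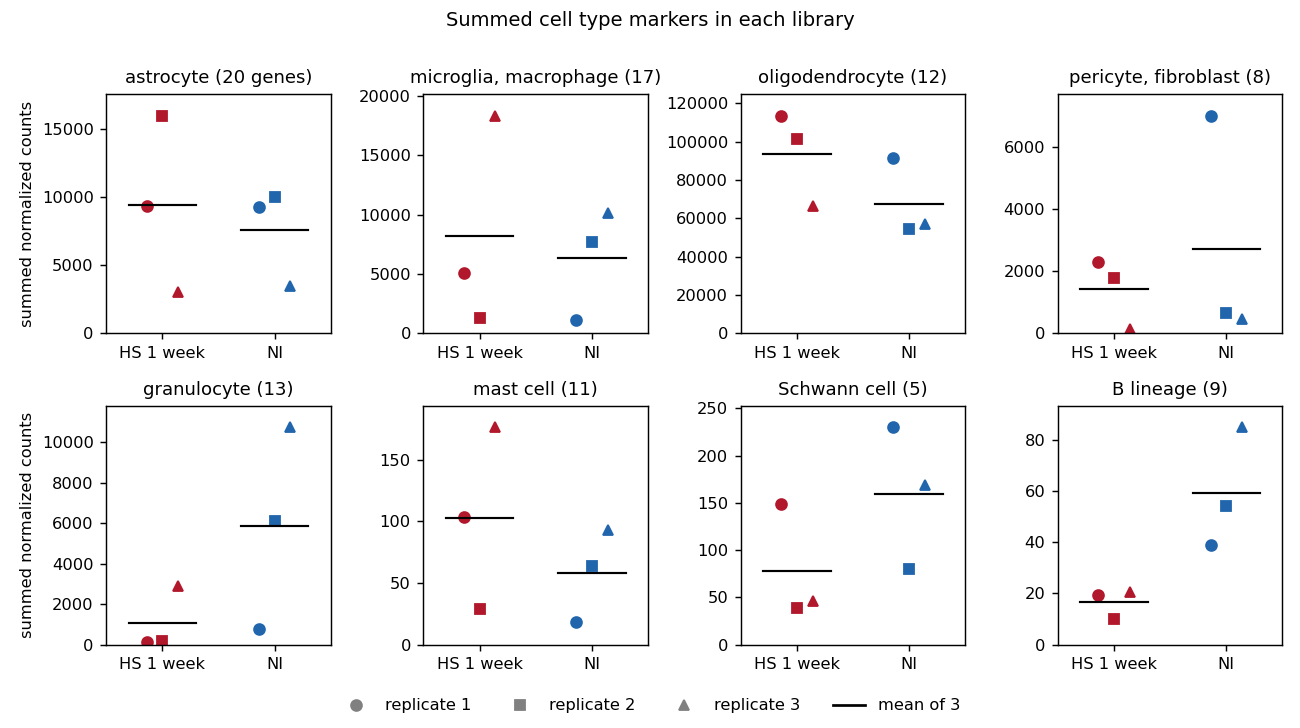
Summed normalized counts of 8 cell type marker lists (y axis, linear, from 0) in the 3 HS 1 week libraries (red, left) and the 3 NI libraries (blue, right) of each panel; shapes mark replicates and the bar is the mean of 3. The astrocyte sum was lowest in library 3 of each group (3062 in HS 1 week and 3488 in NI), while all 3 HS 1 week libraries lay below all 3 NI libraries for the B lineage list.

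Calling a gene took both a 2-fold change and an adjusted p under 0.05. By limma-trend on log2 of the normalized count plus 1, a single gene, C4b, was called among 16388 (0.00610%), and 1256 genes had an unadjusted p under 0.05, of which 707 were higher and 549 lower. The quasi-likelihood test of edgeR also called 1 gene, with 1213 at an unadjusted p under 0.05. The likelihood ratio test of edgeR, which allows less for uncertainty in the spread, called 61 genes, 49 higher (0.299%) and 12 lower (0.0732%). Of these 61 genes, 56 had no overlap between the groups. Over all genes, 1198 had all 3 HS 1 week libraries above all 3 NI libraries (7.31%) and 822 had them below (5.02%). This split depends on scaling: with every column rescaled to the same total, 485 genes lay above (2.96%) and 1736 below (10.6%), and the median log2 fold change of all genes moved to -0.21, against -0.03 as deposited. The gene lists below are read against these shares.

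C4b, the complement C4 gene at chr17:34728380-34743882 of GRCm38, was the gene called by limma-trend. It had 1323, 595 and 645 normalized counts in HS 1 week and 62.6, 31.0 and 27.3 in NI. Every HS library was far above every NI library. The log2 fold change was 4.37 ± 0.41 (standard error, n = 3 each; limma-trend adjusted p = 0.00739, edgeR likelihood ratio FDR = 3.36e-13). Without NI library 2 or NI library 3 the adjusted p of limma-trend was 0.0847 and 0.0643, with log2 fold changes of 4.24 and 4.15, and with only HS 1 week and NI in the model it was 0.253. In the microglia-poor pair, HS library 2 and NI library 1, the values were 595 and 62.6, and in the astrocyte-poor pair, HS library 3 and NI library 3, they were 645 and 27.3. C4a, the neighboring copy of the gene, had 7.03, 4.77 and 5.26 normalized counts in HS 1 week and 1.49, 0.894 and 0.576 in NI (log2 fold change 1.76, likelihood ratio FDR = 9.06e-04, limma-trend adjusted p = 0.116). Of the 50-base windows of a C4b transcript, 35.2% also occur in C4a transcripts, so reads could be split between the copies, and the C4a value is uncertain.

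Of 16 complement genes, C4a and C4b were the 2 that were called by either test, and the 14 others overlapped between the groups. The 2 with no overlap are 12.5% of the list, against 7.31% of all genes. C3, on which the complement pathways converge, had 37.8, 29.4 and 48.5 normalized counts in HS 1 week and 10.2, 27.7 and 60.5 in NI, which overlapped. C1qb, a microglial subunit of the initiating C1 complex, had 552, 153 and 1701 in HS 1 week and 169, 639 and 644 in NI, and was lowest in the libraries poorest in microglia and macrophage transcripts. The median log2 fold change of the list was 0.13, beside -0.03 over all genes, and it was -0.06 after rescaling to the same total.

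**Figure D2:**
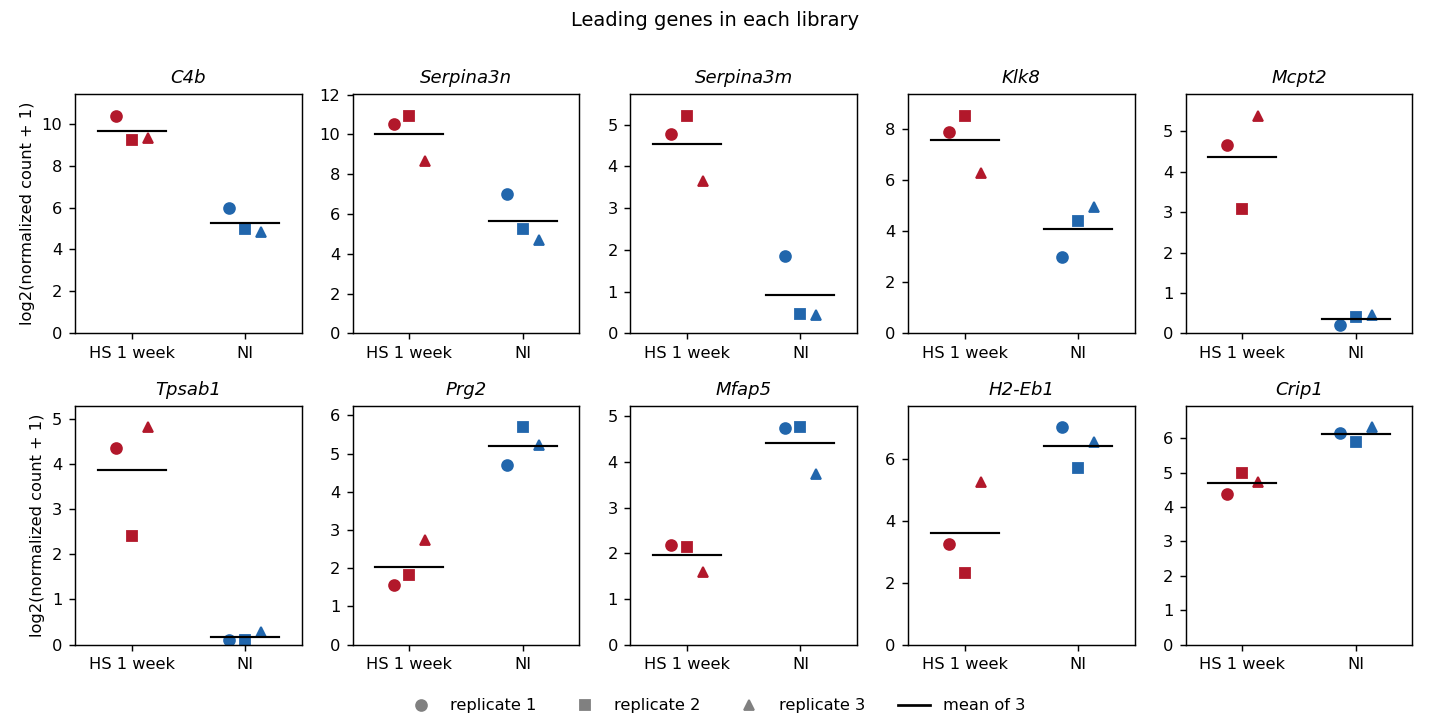
Level of 10 genes on the log2(normalized count + 1) scale (y axis, from 0) in the 3 HS 1 week libraries (red, left) and the 3 NI libraries (blue, right); shapes mark replicates and the bar is the mean of 3. In C4b, Serpina3n, Serpina3m, Klk8, Mcpt2 and Tpsab1 every HS 1 week library was above every NI library, and in Prg2, Mfap5, H2-Eb1 and Crip1 every HS 1 week library was below every NI library.

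Serpina3 genes form a mouse cluster of secreted serine protease inhibitors. Serpina3n, the member most used as a reactive astrocyte marker, at chr12:104406729-104414329, had 1457, 1938 and 408 normalized counts in HS 1 week and 126, 36.3 and 24.4 in NI. Its groups were well apart, with the lowest HS value in the astrocyte-poor library 3. The log2 fold change was 4.41 ± 0.64 (standard error, n = 3 each), with a limma-trend adjusted p of 0.0977 and a likelihood ratio FDR of 1.01e-07. Serpina3m, at chr12:104338486-104394257, had 26.2, 35.9 and 11.6 in HS 1 week and 2.59, 0.383 and 0.360 in NI (log2 fold change 3.62 ± 0.48, limma-trend adjusted p = 0.0977, likelihood ratio FDR = 1.01e-07). Serpina3h, annotated as a transcribed pseudogene, had 11.3, 44.2 and 2.45 in HS 1 week and 0.0786, 0.830 and 0.144 in NI, and Serpina3i had 3.52, 10.4 and 0.673 in HS 1 week and 0.157, 0.319 and 0.144 in NI. In NI these values were 16 reads of Serpina3h and 9 reads of Serpina3i over 3 libraries. All 4 genes were highest in HS library 2, which was also the richest in astrocyte transcripts (15970 summed normalized counts over 20 genes), and the part of this content in the result was not tested. Of the 7 tested family members, 4 were called by the likelihood ratio test and none by limma-trend, and the same 4 had no overlap (57.1%, against 7.31% of all genes). Serpina3c, Serpina3f and Serpina3g overlapped. The genes share sequence: 19.1% of Serpina3m windows, 15.4% of Serpina3i windows and 6.9% of Serpina3n windows of 50 bases occur in transcripts of other genes, mainly of this family, so their separate values are uncertain.

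Gfap had 1631, 1239 and 102 normalized counts in HS 1 week and 154, 100 and 33.3 in NI. HS library 3 lay below NI library 1, so the groups overlapped, and the log2 fold change was 2.87 ± 1.04 (standard error, n = 3 each; limma-trend adjusted p = 0.599, likelihood ratio FDR = 0.0154). Of 13 genes commonly raised in reactive astrocytes, 3 passed the likelihood ratio test (Serpina3n, Gfap and Cxcl10), and 3 had no overlap (Serpina3n, Cxcl10 and Vim), with a median log2 fold change of 0.50 that lay between 0.18 (without HS library 2) and 0.95 (without NI library 1). The 3 with no overlap are 23.1% of the list, against 7.31% of all genes, and 2 were apart after rescaling to the same total. Vim, another intermediate filament gene, had 167, 217 and 157 in HS 1 week and 136, 148 and 143 in NI, a narrow separation. It passed neither test (limma-trend adjusted p = 0.705, likelihood ratio FDR = 0.998). Other members were not separated. Lcn2, an iron-binding acute phase protein also made in quantity by neutrophils, had 13.5, 15.96 and 134 in HS 1 week and 42.5, 297 and 389 in NI (log2 fold change -2.42, limma-trend adjusted p = 0.601). The neutrophil and eosinophil marker sum of the same libraries was 117, 198 and 2897 in HS 1 week and 780, 6099 and 10750 in NI, and its part in the Lcn2 values was not tested.

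Genes of the interferon-induced list were higher as a set. The list was chosen with earlier results of these data known, so its shares are a description and not an independent test. Ifitm1, interferon-induced but not on the list, was lower (log2 fold change -2.05, likelihood ratio FDR = 0.0396). All 32 tested members had a positive log2 fold change, 22 of them had every HS 1 week library above every NI library (68.8%, against 7.31% of all genes), and none had them below. Rescaled to the same total, 19 of the 32 stayed apart, against 2.96% of all genes. Their median log2 fold change was 1.12, beside -0.03 over all genes, and it lay between 0.92 and 1.33 with either rescaling or without any single library. By the likelihood ratio test 7 members were called higher, namely Ifit1, Ifit3, I830012O16Rik, Irf7, Usp18, Oasl2 and Rtp4, and none was called by limma-trend. The 10 overlapping members, among them Mx1, Oas2 and Trim30a, were each lowest in HS library 2 and highest in HS library 3 within the HS group, the libraries with the lowest and highest microglia and macrophage sums (1305 and 18300), and the part of this content was not tested. The plot of interferon-induced genes shows each library.

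**Figure D3:**
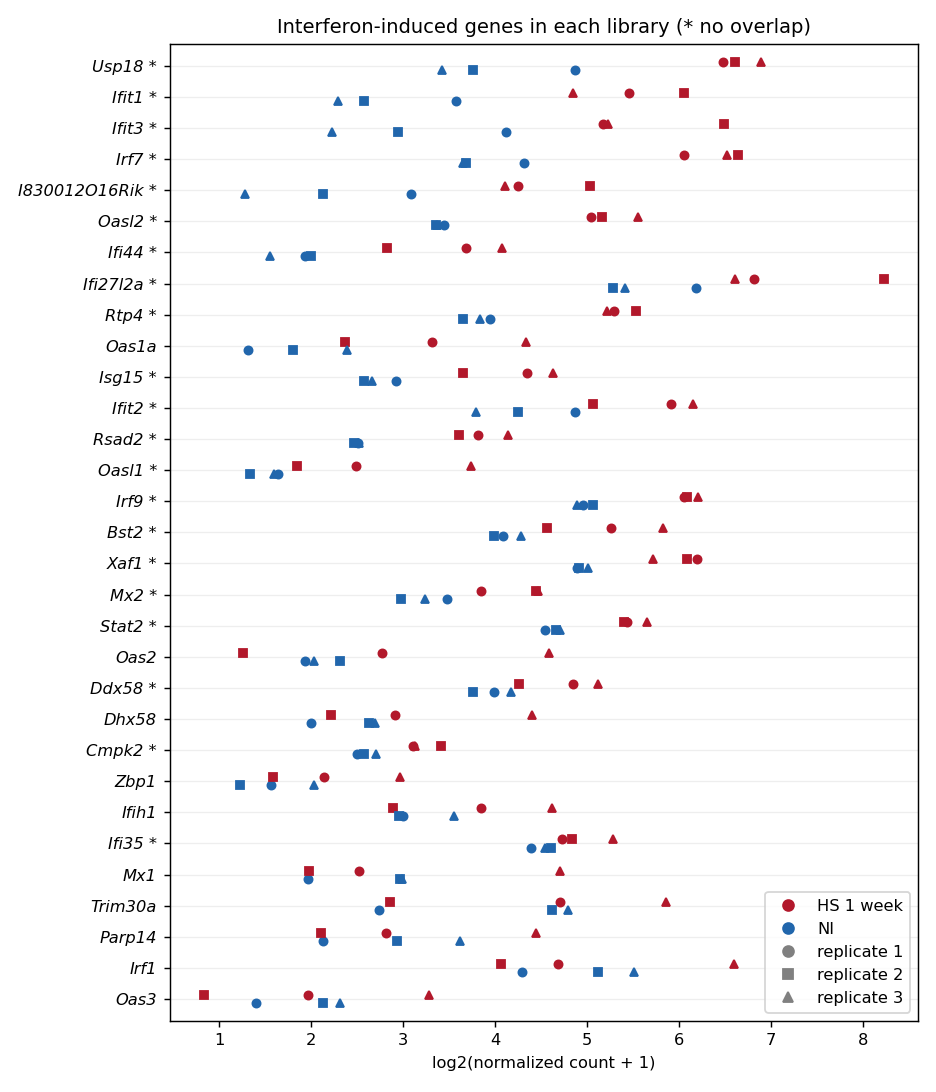
Level of 31 interferon-induced genes, each on its own row, on the log2(normalized count + 1) scale (x axis) in the 3 HS 1 week libraries (red) and the 3 NI libraries (blue), with shapes marking replicates and rows ordered by log2 fold change. An asterisk marks the 21 genes with every HS 1 week library above every NI library; in the 10 others HS library 2 lies below the highest NI library.

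Irf7, the transcription factor that amplifies type I interferon production, had 65.5, 99.1 and 91.2 normalized counts in HS 1 week and 18.9, 11.9 and 11.6 in NI. Its log2 fold change was 2.53 ± 0.41 (standard error, n = 3 each; likelihood ratio FDR = 6.22e-06, limma-trend adjusted p = 0.116). Usp18, which removes ISG15 from proteins and dampens interferon receptor signaling, had 88.1, 96.3 and 118 in HS 1 week and 28.3, 12.6 and 9.72 in NI (log2 fold change 2.64, likelihood ratio FDR = 1.67e-04). In both genes the HS values lay close together and well above the NI values. Ifit1, which binds viral RNA caps, had 42.8, 65.5 and 27.8 in HS 1 week and 10.9, 4.98 and 3.89 in NI (log2 fold change 2.64, likelihood ratio FDR = 7.21e-05). Ifit3, its binding partner, had 35.0, 88.9 and 36.5 in HS 1 week and 16.4, 6.70 and 3.67 in NI (log2 fold change 2.53, likelihood ratio FDR = 0.00175). Of the 50-base windows of the Ifit3 transcript, 51.2% are shared with its copy Ifit3b, so the Ifit3 level is uncertain. Oasl2, a relative of the oligoadenylate synthetases that sense double-stranded RNA, had 32.0, 34.7 and 46.1 in HS 1 week and 9.90, 9.26 and 9.36 in NI (log2 fold change 1.86, likelihood ratio FDR = 0.00117).

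Stat2 and Irf9, factors that carry the interferon signal, were separated too, at smaller size and without a call by either test. Stat2 had 42.3, 41.1 and 49.2 normalized counts in HS 1 week and 22.4, 24.3 and 25.2 in NI. Irf9, which binds DNA in a complex with STAT2, had 65.5, 66.7 and 72.7 in HS 1 week and 30.1, 32.4 and 28.6 in NI. The log2 fold changes of Stat2 and Irf9 were 0.85 and 1.15, with limma-trend adjusted p of 0.467 and 0.229. Irf1, induced more by type II interferon, had 24.7, 15.7 and 95.9 in HS 1 week and 18.5, 33.7 and 44.6 in NI, and overlapped. Summed over the 32 genes, the level was 1069, 1247 and 1380 in HS 1 week and 473, 419 and 441 in NI. HS library 2, with a microglia and macrophage sum of 1305, and NI library 1, with 1092, had interferon sums of 1247 and 473. Tests of such sums with 3 libraries a group cannot give an exact permutation p below 0.1.

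Interferon-stimulated response elements, the sites that IRF and STAT complexes bind, carry paired GAAA cores with a short spacer. The motif GAAANNGAAA was searched on both strands in the 250 bases before the start of each gene in RefSeq (GRCm38.p6), where matches may overlap each other. It was found in 936 of 27025 genes (3.46%) and in 386 of the 11959 tested genes with an entry (3.23%). Of 21 interferon-induced genes with an entry, 9 held it, among them Ifit1, Ifit3, Isg15 and Rsad2. It was in 6 of the 16 with no overlap and in 3 of the 5 with overlap. A match is a description of the letters and not a measured binding site. The windows of 80 bases that hold the match nearest to the start are shown for 4 of these genes and for the GTPase genes Irgm1 and Igtp described next, on the strand of the gene, with the matches in capitals. TTTC stands where the motif lies on the other strand.
Ifit1 (chr19:34640769-34640848, + strand): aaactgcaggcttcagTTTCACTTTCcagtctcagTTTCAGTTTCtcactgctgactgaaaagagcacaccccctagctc
Ifit3 (chr19:34583372-34583451, + strand): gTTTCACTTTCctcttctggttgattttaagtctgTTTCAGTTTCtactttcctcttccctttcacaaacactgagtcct
Isg15 (chr4:156200840-156200919, - strand): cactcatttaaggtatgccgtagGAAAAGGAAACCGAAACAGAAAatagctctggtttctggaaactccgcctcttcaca
Rsad2 (chr12:26456528-26456607, - strand): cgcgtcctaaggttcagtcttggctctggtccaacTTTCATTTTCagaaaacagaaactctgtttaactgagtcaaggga
Irgm1 (chr11:48871421-48871500, - strand): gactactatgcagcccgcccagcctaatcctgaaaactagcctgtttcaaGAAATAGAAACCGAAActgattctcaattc
Igtp (chr11:58199476-58199555, + strand): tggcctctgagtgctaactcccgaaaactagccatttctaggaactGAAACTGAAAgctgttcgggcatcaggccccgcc
Isg15, a ubiquitin-like protein, had 19.4, 11.5 and 23.7 normalized counts in HS 1 week and 6.60, 4.98 and 5.33 in NI, and Rsad2, an antiviral enzyme, had 13.1, 11.2 and 16.6 in HS 1 week and 4.72, 4.53 and 4.75 in NI. Neither passed a test (limma-trend adjusted p = 0.467 and 0.598).

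The immunity-related GTPases (IRG) and guanylate-binding proteins (GBP), which attack the vacuoles of intracellular pathogens and respond chiefly to type II interferon, were less uniform. Of 14 members, 5 had no overlap and were higher (Iigp1, Igtp, Irgm1, Gbp3 and Gbp5), which is 35.7%, against 7.31% of all genes. A positive log2 fold change was seen in 9, and the median was 0.71. Irgm1 had 46.9, 55.6 and 59.6 normalized counts in HS 1 week and 17.8, 17.2 and 20.9 in NI, and it was the member called by the likelihood ratio test (log2 fold change 1.49, FDR = 0.0127, limma-trend adjusted p = 0.275). Igtp had 20.6, 24.3 and 36.5 in HS 1 week and 9.82, 15.6 and 15.8 in NI. Gbp2 had 13.2, 7.03 and 15.7 in HS 1 week and 16.7, 10.4 and 9.50 in NI, which overlapped. The motif was in 9 of the 10 members of this list with a promoter entry, Gbp2 included.

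Among genes of antigen presentation, class I genes had a positive and class II genes a negative median log2 fold change. Class I molecules present peptides of the cell itself to cytotoxic T cells. H2-D1, a classical class I heavy chain at chr17:35262730-35267499, had 416, 336 and 945 normalized counts in HS 1 week and 122, 159 and 187 in NI (log2 fold change 1.72 ± 0.42, standard error, n = 3 each; likelihood ratio FDR = 0.0232, limma-trend adjusted p = 0.381). B2m, the light chain, had 1175, 1016 and 1489 in HS 1 week and 487, 582 and 770 in NI, and H2-K1, the other classical heavy chain, had 134, 115 and 301 in HS 1 week and 39.9, 70.8 and 90.8 in NI. Of the 11 class I genes tested, 4 had every HS library above every NI library (H2-D1, H2-K1, B2m and Nlrc5, the class I transactivator), and the median was 0.83, with 0.35 without HS library 3 and 0.50 without NI library 1. These 4 are 36.4% of the list, against 7.31% of all genes. H2-K1, B2m and Nlrc5 passed neither test (likelihood ratio FDR = 0.482, 0.742 and 0.613). The peptide transporter and proteasome genes Tap2, Tapbp, Psmb8 and Psmb9 overlapped, with log2 fold changes between -0.51 and 0.26. The class I heavy chains share sequence, as 14.3% of H2-D1 windows and 8.79% of H2-K1 windows occur in other transcripts, which makes the level of each gene uncertain.

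Class II molecules present engulfed antigen to helper T cells and are mostly made by myeloid and B cells. H2-Eb1, the E beta chain at chr17:34305867-34316674, had 8.49, 3.90 and 36.6 normalized counts in HS 1 week and 128, 51.4 and 91.7 in NI (log2 fold change -2.83 ± 0.69, standard error, n = 3 each; likelihood ratio FDR = 0.045, limma-trend adjusted p = 0.381). H2-Aa had 10.8, 3.64 and 43.0 in HS 1 week and 123, 56.9 and 107 in NI, and H2-Ab1 had 12.9, 3.64 and 68.1 in HS 1 week and 149, 85.2 and 134 in NI. None of these 3 genes overlapped between the groups, and all were lower in HS 1 week. Of 7 class II genes, 3 had every HS library below every NI library (42.9%, against 5.02% of all genes), all 7 had a negative log2 fold change, and the median was -2.35, with -3.40 without HS library 3 and -1.36 without HS library 2. Within HS 1 week these 3 genes ranked as the microglia and macrophage sum did, lowest in library 2 (sum 1305) and highest in library 3 (sum 18300), whereas in NI library 1, with the lowest sum (1092), H2-Eb1 was highest at 128. The part of this content in the result was not tested. Sums of the B lineage list were 19.4, 9.80 and 20.4 in HS 1 week and 38.8, 54.3 and 85.2 in NI, and their part in the result was not tested.

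Of genes of activated phagocytes and of lipid transport, Spp1, Apoc1 and Apoc4 passed the likelihood ratio test. Spp1, the secreted phosphoprotein osteopontin, had 550, 65.9 and 715 normalized counts in HS 1 week and 20.8, 38.5 and 72.4 in NI. HS library 2 lay below NI library 3, and the log2 fold change was 2.90 ± 0.93 (standard error, n = 3 each; likelihood ratio FDR = 0.00687, limma-trend adjusted p = 0.526). Within HS 1 week Spp1 ranked as the microglia and macrophage sum did (5048, 1305 and 18300 in libraries 1 to 3). NI libraries 2 and 3 had sums of 7728 and 10160, with Spp1 at 38.5 and 72.4. The part of this content in the result was not tested. Cd63, a lysosomal tetraspanin, had 1093, 1028 and 782 in HS 1 week and 483, 384 and 370 in NI, Ctsb, a lysosomal protease, had 4264, 3353 and 5270 in HS 1 week and 2280, 1400 and 1561 in NI, and Csf1, the macrophage growth factor, had 147, 169 and 188 in HS 1 week and 90.3, 57.5 and 63.6 in NI. Together with Axl, a receptor for dying cells, they were the 4 of 13 members with no overlap (median 1.31, with 0.67 without HS library 3 and 1.95 without HS library 2), and Cd63, Ctsb and Csf1 passed neither test (limma-trend adjusted p = 0.204, 0.467 and 0.116). The 4 are 30.8% of the phagocyte list, against 7.31% of all genes.

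Among 12 lipid transport genes, 4 had every HS library above every NI library (33.3%, against 7.31% of all genes), namely Apoc1, Apoc4 and the cholesterol exporters Abca1 and Abcg1. After rescaling to the same total 3 were apart. Abca1 and Abcg1 passed neither test (likelihood ratio FDR = 0.136 and 0.744, limma-trend adjusted p = 0.467 and 0.489). Abca1 was barely apart, with 92.5, 40.6 and 89.7 normalized counts in HS 1 week and 27.1, 39.0 and 31.5 in NI. Apoc1, a small apolipoprotein at chr7:19689481-19692660, had 25.0, 14.6 and 21.6 normalized counts in HS 1 week and 5.97, 3.13 and 2.45 in NI (log2 fold change 2.18 ± 0.37, standard error, n = 3 each; likelihood ratio FDR = 3.57e-05, limma-trend adjusted p = 0.116). Apoc4, in the same cluster, was near the limit of detection with 59 reads in HS 1 week and 8 reads in NI (likelihood ratio FDR = 0.0173). HS library 2 and NI library 2 had 7 reads each (0.607 and 0.447 normalized counts), so its lack of overlap rests on the library factors. Apoe, the major lipid carrier of the brain and of the same cluster, had 2021, 957 and 3329 in HS 1 week and 560, 1116 and 655 in NI, which overlapped. Of 16 chemokines, Ccl5 and Cxcl10 alone had no overlap (12.5%, against 7.31% of all genes). Ccl5, which attracts T cells, had 59.7, 9.28 and 71.1 in HS 1 week and 3.46, 4.02 and 4.32 in NI (log2 fold change 2.85, likelihood ratio FDR = 0.00175, limma-trend adjusted p = 0.511). Cxcl10, an interferon-induced chemokine, had 15.5, 10.2 and 29.8 in HS 1 week and 5.89, 2.87 and 4.39 in NI (log2 fold change 1.77, likelihood ratio FDR = 0.0276, limma-trend adjusted p = 0.46).

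Kallikreins are secreted serine proteases, and the neighbors Klk8 and Klk9 on chromosome 7 were higher by the likelihood ratio test. Klk8, also named neuropsin, at chr7:43797577-43803826, had 235, 363 and 75.7 normalized counts in HS 1 week and 6.92, 19.98 and 29.4 in NI (log2 fold change 3.45 ± 0.64, standard error, n = 3 each; likelihood ratio FDR = 1.12e-05, limma-trend adjusted p = 0.179). Klk9, at chr7:43791891-43796757, had 7.64, 15.1 and 3.61 in HS 1 week and 1.02, 1.09 and 0.720 in NI (log2 fold change 2.16, likelihood ratio FDR = 2.96e-05). Both were highest in HS library 2. The transcript 2310002F09Rik on the other strand (chr7:43695209-43797958) covers Klk9 and the start of Klk8, and the likelihood ratio test called it higher too. Strand was not stated to be kept, so reads of these 3 genes may not be separable. Klk6, a kallikrein of oligodendrocytes in the same cluster, had 4174, 7944 and 1501 in HS 1 week and 4283, 861 and 917 in NI, so its groups overlapped.

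Genes linked to neurons and to immature cells were mixed. Tubb3, the neuronal beta tubulin gene, had 177, 205 and 82.2 normalized counts in HS 1 week and 69.6, 23.9 and 23.4 in NI (log2 fold change 2.05 ± 0.42, standard error, n = 3 each; likelihood ratio FDR = 0.00751, limma-trend adjusted p = 0.275). Fgfr4, a fibroblast growth factor receptor, had 11.8, 14.5 and 7.59 in HS 1 week and 3.14, 1.15 and 2.45 in NI (log2 fold change 1.93, likelihood ratio FDR = 0.00375, limma-trend adjusted p = 0.204). Of 13 genes of a neural progenitor and GABAergic list these 2 were called, and the other members overlapped. The 2 are 15.4% of that list, against 7.31% of all genes. Dcx, a microtubule protein of migrating young neurons, had 3.03, 5.55 and 6.24 in HS 1 week and 2.99, 3.83 and 3.60 in NI. Gad1 and Gad2, which make GABA, had log2 fold changes of -0.16 and -0.38, and Pvalb had -0.05. Of 12 neuronal markers, Eno2, the neuronal enolase, was the member apart, with 91.4, 90.6 and 56.3 in HS 1 week and 45.3, 19.4 and 20.7 in NI (log2 fold change 1.52, likelihood ratio FDR = 0.0374, limma-trend adjusted p = 0.292). Eno2 alone is 8.33% of the list, near the 7.31% of all genes. Snap25, a synaptic fusion protein, had 29.5, 28.3 and 7.46 in HS 1 week and 57.8, 23.4 and 16.8 in NI, and the synaptic vesicle gene Syt1 had 2.79, 1.21 and 2.88 in HS 1 week and 2.99, 1.79 and 2.16 in NI.

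Further genes were called or lay apart outside these groups. Cacng5, an auxiliary subunit of glutamate receptors, had 53.1, 19.6 and 16.3 normalized counts in HS 1 week and 2.83, 2.81 and 2.52 in NI (log2 fold change 2.85, likelihood ratio FDR = 1.79e-07). Stk32b, a serine and threonine kinase, had 19.4, 9.80 and 5.44 in HS 1 week and 1.02, 0.702 and 0.432 in NI (log2 fold change 2.72, likelihood ratio FDR = 1.01e-07). Both had a limma-trend adjusted p of 0.116 and no overlap. Of 16 genes of the amino acid response of the stress factor ATF4, Atf4 itself included, 4 had every HS library above every NI library. These were Trib3, Ddit3, Asns and Aldh1l2, and 2 were apart after rescaling to the same total. The 4 are 25% of the list, against 7.31% of all genes. Trib3 and Aldh1l2 passed the likelihood ratio test, and Ddit3 and Asns passed neither test (likelihood ratio FDR = 0.998 and 0.89). Aldh1l2, the mitochondrial relative of Aldh1l1, had 143, 90.7 and 59.6 in HS 1 week and 32.9, 23.1 and 18.4 in NI (log2 fold change 1.89, likelihood ratio FDR = 2.42e-04), while Aldh1l1 itself had 73.0, 127 and 13.8 in HS 1 week and 82.3, 59.4 and 10.2 in NI. Tnc, the matrix protein tenascin C, was the 1 of 13 matrix genes apart, with 6.67, 9.20 and 9.97 in HS 1 week and 1.65, 2.81 and 2.74 in NI (limma-trend adjusted p = 0.388, likelihood ratio FDR = 0.0925), a share of 7.69% against 7.31% of all genes. The remaining genes called higher by the likelihood ratio test were Lgals3bp, Gpx3, H2-Q2, Ly6a, Gm1647, Rab3b, 2310002F09Rik, Adamtsl3, Pik3r3, Mmp11, Sbk2, Gpr151 and Myzap, with log2 fold changes between 1.32 and 2.34 and no overlap. Of these, Gpx3, the secreted glutathione peroxidase, had 105, 63.9 and 59.95 in HS 1 week and 9.74, 23.8 and 19.9 in NI (FDR = 7.21e-05, limma-trend adjusted p = 0.116), and Lgals3bp, a secreted galectin-binding protein, had 160, 138 and 394 in HS 1 week and 52.7, 48.0 and 40.1 in NI (FDR = 0.0161, limma-trend adjusted p = 0.467). Zfp619 was called by the likelihood ratio test (FDR = 0.0127) on a single library, as it had 31.4, 1748 and 6.18 in HS 1 week and 9.67, 4.85 and 4.18 in NI.

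The likelihood ratio test called 5 of 11 mast cell genes higher, against 0.299% of all genes, and all 5 were granule proteases. Mcpt2, a chymase of mucosal mast cells, had 24.3, 7.46 and 40.7 normalized counts in HS 1 week and 0.157, 0.319 and 0.360 in NI. Tpsab1, a tryptase, had 19.4, 4.34 and 27.2 in HS 1 week and 0.0786, 0.0638 and 0.216 in NI. As reads these were 952 of Mcpt2 and 654 of Tpsab1 in the 3 HS libraries and 12 and 5 in the 3 NI libraries, and the ratios of summed normalized reads were 92.9 (95% interval 52.9 to 180) and 153 (65.3 to 473), where the intervals are exact binomial and cover counting error only. The likelihood ratio FDR was 1.52e-11 for Mcpt2 and 1.83e-12 for Tpsab1, and the limma-trend adjusted p was 0.116 for both. Cma1 (263 reads in HS 1 week and 5 in NI), Tpsb2 (204 reads in HS 1 week and 3 in NI) and Mcpt1 (292 reads in HS 1 week and 8 in NI) were called as well, and for Tpsb2, with 3 reads in NI, the ratio was 79.6 (95% interval 26.9 to 389). The protease gene Mcpt4, with 20 reads in HS 1 week and 7 in NI, overlapped (likelihood ratio FDR = 0.893). The carboxypeptidase gene Cpa3, abundant in mast cells, had 283 reads in HS 1 week and 286 in NI, with a ratio of 1.16 (95% interval 0.979 to 1.37), and Kit, Ms4a2 and Hdc overlapped as well. Fcer1a, a chain of the IgE receptor, had 0.849, 0.434 and 3.79 in HS 1 week and 5.27, 4.85 and 11.95 in NI, so every HS library was below every NI library, though it passed neither test. The 5 called genes were lowest among HS libraries in library 2, which was also poorest in microglia and macrophage transcripts. NI libraries 2 and 3, with microglia and macrophage sums of 7728 and 10160, had 5 and 5 reads of Mcpt2 and 1 and 3 of Tpsab1. The part of this content in the result was not tested.

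Among genes of granulocytes, the eosinophil genes Prg2 and Epx were lower in HS 1 week with no overlap. Ear1 and Ear2, the other eosinophil genes of the list, were not tested. Prg2, the eosinophil major basic protein gene at chr2:84980461-84983632, had 1.94, 2.52 and 5.63 normalized counts in HS 1 week and 25.1, 50.7 and 36.2 in NI (log2 fold change -3.17 ± 0.46, standard error, n = 3 each; likelihood ratio FDR = 2.1e-05, limma-trend adjusted p = 0.0977). Epx, the eosinophil peroxidase, had 33 reads over the 3 HS libraries and 228 over the 3 NI libraries (log2 fold change -1.67, likelihood ratio FDR = 0.00574). These were the 2 of 13 granulocyte genes called, and the 2 with no overlap (15.4%, against 5.02% of all genes). The 11 neutrophil genes all overlapped between the groups, and none was called by limma-trend or the likelihood ratio test. S100a9, a calcium-binding protein of neutrophils, had 12.97, 24.3 and 317 in HS 1 week and 101, 1076 and 1666 in NI, and Mpo, a gene of neutrophil precursors, had 2.30, 5.47 and 137 in HS 1 week and 47.5, 123 and 563 in NI. All 13 granulocyte genes had a negative log2 fold change, with a median of -2.93.

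Other blood and marrow lists had the same sign. All 9 B lineage genes and all 7 erythroid genes had a negative log2 fold change (medians -1.27, between -1.86 and -0.94, and -0.91, between -1.25 and -0.71). By library, the B lineage median relative to the NI mean was -1.71, -1.46 and -0.80 in HS 1 week and -1.21, 0.35 and 0.78 in NI. The erythroid median was -1.03, -0.77 and -0.69 in HS 1 week and -0.87, 0.34 and 0.53 in NI. NI library 1 thus lay within the HS range in both lists. Ms4a1 of the B lineage and the erythroid genes Alas2, Klf1 and Epor had no overlap, and no member was called by limma-trend or the likelihood ratio test. These are 11.1% of the B lineage list and 42.9% of the erythroid list, against 5.02% of all genes. Vpreb3, expressed in B cell precursors, had 0.243, 0.521 and 1.65 in HS 1 week and 1.18, 6.89 and 12.9 in NI. Summed over the erythroid genes, the level was 13.1, 13.3 and 14.6 in HS 1 week and 18.1, 41.5 and 71.2 in NI. The 9 T and natural killer cell genes had a median of -0.26 (between -0.42 and -0.02), with no member apart, and Cd3e, a chain of the T cell receptor complex, had 0.364, 0.781 and 1.16 in HS 1 week and 0.629, 1.15 and 1.58 in NI.

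Schwann cell and connective tissue genes were also among the lower calls. Prx, periaxin of peripheral myelin, had 7, 8 and 18 reads in HS 1 week libraries 1 to 3 and 143, 33 and 157 in NI libraries 1 to 3. The sums were 33 and 333 reads (likelihood ratio FDR = 0.00168, limma-trend adjusted p = 0.381). NI library 2 lay closer to the HS libraries than NI libraries 1 and 3 did. Ncmap was also below in every library, but narrowly, with 3.73 normalized counts in HS library 2 and 4.085 in NI library 2. Of 5 Schwann cell genes, 3 had no overlap (60%, against 5.02% of all genes) and 2 were called, while Cdh19 and Scn7a overlapped. Mfap5, a microfibril protein of fibroblasts, had 3.52, 3.38 and 2.02 in HS 1 week and 25.9, 26.2 and 12.3 in NI (log2 fold change -2.45 ± 0.35, standard error, n = 3 each; likelihood ratio FDR = 1.12e-05, limma-trend adjusted p = 0.0977). The pericyte and fibroblast list itself was not separated, with sums of 2305, 1790 and 154 in HS 1 week and 7005, 643 and 459 in NI. Crip1, a LIM domain protein, had 19.9, 30.6 and 25.4 in HS 1 week and 70.5, 58.2 and 79.2 in NI, S100a11, a calcium-binding protein, had 13.3, 25.7 and 31.0 in HS 1 week and 40.9, 91.5 and 118 in NI, and Ifitm1, an interferon-induced membrane protein, had 3.03, 4.25 and 10.8 in HS 1 week and 23.2, 15.3 and 43.9 in NI (likelihood ratio FDR = 0.00629, 0.0282 and 0.0396). Ifitm1 was not a member of the interferon-induced list, whose members all had positive values. Rab19, Pi16 and Ly6d were also called lower, all at low levels, and Pi16 and Ly6d overlapped.

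Lists that define the main cell types were not separated between the groups. None of the 20 astrocyte genes had groups apart, 10 were positive, and the median log2 fold change was 0.01, with values between -0.78 and 0.93 across the rescalings and left-out libraries. None of the 17 microglia and macrophage genes had groups apart either (median 0.12, between -0.83 and 1.18). Of 12 oligodendrocyte genes, Cldn11, a tight junction protein of myelin, lay apart with 4439, 3622 and 2787 normalized counts in HS 1 week and 2191, 1685 and 1671 in NI (log2 fold change 0.95, limma-trend adjusted p = 0.563), and the median was 0.45, between 0.24 and 0.63. Cldn11 alone is 8.33% of the list, near the 7.31% of all genes. The 12 genes of oligodendrocyte progenitors had 1 positive log2 fold change and a median of -0.78 (between -1.24 without NI library 1 and -0.38 without HS library 1), with no member apart. Of 20 cell cycle genes 2 were positive (median -0.63, between -1.06 without NI library 1 and -0.20 without NI library 3), and none was called or apart. Cholesterol synthesis genes (15 genes) had a median of -0.24, which turned to 0.18 without NI library 1, and immediate early genes (13 genes) had -0.42, which turned to 0.26 without HS library 2. Heat shock genes (6 genes) had -0.27 (between -0.56 and -0.02) and glucocorticoid response genes (11 genes) 0.01 (between -0.24 and 0.22) across the same alternatives. These lists had no member called, and Insig1 alone lay apart (6.67% of the cholesterol list, against 5.02% of all genes), with 101, 133 and 108 in HS 1 week and 167, 274 and 205 in NI. The plot of list medians sets these beside the lists described above.

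Since the microglia and macrophage sum varied widely within each group, limma-trend was also run with the log2 of this sum as a covariate. This fit called 161 genes, 68 higher (0.415%) and 93 lower (0.567%), and it depended on single libraries: without NI library 3 it called 24, without HS library 1, 41, without HS library 2, 50, and without NI library 2, 99. Of the 161, 118, 82 and 24 stayed called without NI library 1, 2 or 3. Without HS library 1, 2 or 3, 36, 41 and 110 stayed called. All 161 kept their sign in these 6 fits, but they were picked for a 2-fold change in the same libraries, so this lends no support. Serpina3n, C4b, Serpina3m, Myzap and Tubb3 had adjusted p of 1.29e-05, 1.07e-04, 1.07e-04, 7.94e-04 and 8.28e-04 in this fit, and Gfap and Spp1 had 0.03 and 0.00914. By list, it called 10 of 32 interferon-induced genes, all 4 separated Serpina3 genes, 4 phagocyte genes (Spp1, Cst7, Cd63 and Csf1) and 2 mast cell proteases as higher, and 6 granulocyte, 4 class II and 4 B lineage genes and 3 cell cycle genes (Mki67, Top2a and Aurkb) as lower.

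No gene was called between HS 1 week and HS 2 weeks. In HS 2 weeks minus HS 1 week limma-trend called 0 of 16388 genes (0.00%), with 266 at an unadjusted p under 0.05. C4b and Serpina3n had differences of 0.74 and -0.05 on the log2 scale in this contrast (adjusted p = 1 for both). FT 1 week minus HS 1 week called 57 genes (0.348%), which rest on the single FT 1 week library, assumed to vary like the others. C4b and Serpina3n differed by 1.03 and 0.67 in that contrast (adjusted p = 1 for both). Both contrasts share the HS 1 week libraries with the comparison above.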

How the data were processed

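Libraries of polyadenylated RNA from sorted eGFP+ cells were made by the authors with a low-input kit that amplifies cDNA, and strand was not stated to be kept, so overlapping antisense genes cannot be separated. Per the study's methods and processing notes, the authors used TopHat2 2.0.9 for alignment (mm10, GRCm38) and HTSeq 0.5.4p3 for counting; low-count genes were dropped, and library size was normalized with edgeR 3.3.6. The deposited values are a normalized count signal per gene, and none of the 12 columns was left unmatched to a sample. Divided by the smallest step of its library, 100% of values were whole within 1e-06, so reads and depth were recovered; the 3-read floor was 0.184 to 0.364 normalized counts in HS 1 week and 0.192 to 0.236 in NI.

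All 12 libraries entered 1 limma-trend model (limma 3.58.1, R 4.3.3) with a term for each of 5 groups, on log2(value + 1), for genes averaging 0.5 or more in any group, with Benjamini-Hochberg adjustment. Of the tests of edgeR 4.0.16 and of DESeq2 1.42.0, all run on recovered reads, the likelihood ratio test follows the study's own negative binomial model. Genes sharing reads with a copy were looked for by 50-base windows of GENCODE M21 transcripts; positions matched 93.5% of tested genes. Plots were drawn with matplotlib 3.10.9.

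Named genes were those called by limma-trend, up to 12 higher and 12 lower genes of largest fold among calls by either test with no overlap and a mean of at least 5, genes the study itself names, and, from 34 lists of 442 genes, the members that were called or apart, with others as examples. Further likelihood ratio calls, and examples of genes not apart, were named after their values were seen. Some genes are counted in the lists but not reported here one by one. The comparison, its members and the lists were chosen with earlier results of these data known. Alternatives were pseudocounts of 0.25 and 4, filters, both rescalings, array quality weights, the covariate, the replicate block, each library left out and the count models. Replicates are separate libraries of pooled animals; where nothing states that pools were independent, p-values measure only the spread between these libraries. No 2 libraries of a group agreed within sampling noise. The intervals of read ratios cover counting error only.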

Additional observations from a re-analysis of the deposited data

Results flagged for a closer look

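In FT 1 week minus HS 1 week by limma-trend, H2-Eb1 of the class II list was flagged for its difference. So were Iigp1, Igtp, Irgm1 and Gbp3 of the IRG and GBP list. Since FT 1 week is a single library, assumed to vary like those of the other groups, this contrast sets that library against HS 1 week. It does not show a difference between the injuries. The log2 difference was 5.63 for H2-Eb1, 5.88 for Iigp1, 3.78 for Igtp, 2.93 for Irgm1 and 2.97 for Gbp3. All 5 were higher in the FT 1 week library. In HS 2 weeks minus HS 1 week each of the 5 had an adjusted p of 1.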

How the results depend on the processing

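C4b kept its direction under all 20 alternatives (log2 fold change 4.01 to 5.18), and its adjusted p was 0.00454 to 0.0847 without any single library and 0.253 with only HS 1 week and NI in the model. Against 1 gene as reported, limma-trend called 2 with a pseudocount of 4, 0 with only HS 1 week and NI in the model, 1267 with array quality weights (370 higher and 897 lower), 161 with the covariate and 0 to 15 without any single library (0 without NI library 2 or 3, 11 without NI library 1 and 15 without HS library 3), whereas the likelihood ratio test called 61 and DESeq2 84. The likelihood ratio test called 480 with the covariate and 37 to 309 without any single library (37 without NI library 3, 135 without NI library 1 and 309 without HS library 3). The covariate fit called 24 to 241 without any single library and 135 with 5 homeostatic microglia genes as covariate, both chosen after seeing the data. Genes with no overlap numbered 2020 as reported and 2814 to 5000 without any single library, where fewer values must be apart. The causes of the other shifts were not tested.

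With a replicate block limma-trend called 7 genes and the likelihood ratio test 138; same-numbered libraries correlated at 0.37, -0.26 and 0.72 in their deviations, so the numbers were not taken to pair the samples. Genes that changed sign were not called: Nefl (0.97), Syt1 (0.29), Snap25 (0.21) and Dcx (-0.10) with array quality weights. The log2 fold change of Pvalb was 0.042 by the quasi-likelihood test, 0.043 by the likelihood ratio test and 0.0583 by DESeq2, and the log2 fold change of Syt1 was 0.0029 by DESeq2. Without a single library, the values ranged over both signs for Nefl (-0.97 to 0.48), Syt1 (-0.18 to 0.23), Pvalb (-0.39 to 0.24), Sox10 (-0.26 to 0.12), Aldh1l1 (-0.45 to 1.34), Gad1 (-0.42 to 0.016) and Snap25 (-0.95 to 0.018). With 3 libraries a group of unlike cell content, differences carried by a cell type that varies within groups could be hidden, and levels near the 3-read floor are imprecise.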
